A study of Bos taurus with 2 samples.

Results

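The subunits of oxidative phosphorylation that are encoded in the nucleus were followed by name through 2 arrays of bovine sperm RNA. A probe was taken as a member when its gene name began with NDUFA, NDUFB, NDUFC, NDUFS, NDUFV, UQCR, ATP5, COX4, COX5, COX6, COX7 or COX8, or was SDHA, SDHB, SDHC, SDHD, CYC1, CYCS or CYCT. This gave 92 of the 32429 gene names on the array and 214 of its 51280 probes. One array carried RNA of spermatozoa from low-fertile bulls and the other from high-fertile bulls. All bulls were crossbred males kept for breeding, and the labels give neither an age nor how many bulls stand behind an array. The labels call the animals low or high in fertility without a conception rate or another measure.

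Oxidative phosphorylation runs on 5 complexes of the inner mitochondrial membrane. Complex I takes electrons from NADH and complex II from succinate, complex III passes them through cytochrome c to complex IV, which reduces oxygen, and complex V makes ATP from the proton gradient that complexes I, III and IV build. In sperm the mitochondria are packed into the midpiece of the tail, and a mature sperm cell is largely silent in transcription, so its RNA is mostly a remnant of spermatid stages. The nucleus encodes all of complex II and most subunits of the other complexes, while a small core of complexes I, III, IV and V is encoded by mitochondrial DNA.

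Values are processed signals, the background-subtracted brightness of a spot in arbitrary units, and differences are log2 of the low-fertile over the high-fertile signal after each array was scaled by its 75th percentile, 186 on the low-fertile array and 149 on the high-fertile array. A gene was counted as measured when at least 1 of its probes was well above background on both arrays, and its difference is the mean over those probes. With 1 array per group there is no replicate check and no p-value, and the number of arrays limits the precision. The log2 SD between repeat spots of one probe was 0.28 over 3038 probes and 0.19 over 10 member probes, which covers the array surface only. In bulk RNA, fewer cells of a type and less RNA per cell cannot be told apart.

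The labelled cell type was checked against markers. Of 17 spermatid and sperm genes 8 were measured, with a summed signal of 1051 on the low-fertile array and 885 on the high-fertile array, and PRM2, AKAP4, AKAP3, TEKT1, TEKT2, TSSK6, SPATA18, PGK2 and LDHC were not well above background on either. Of 14 leukocyte genes 9 were measured, with a summed signal of 14969 on the low-fertile array and 9775 on the high-fertile array and a median difference of -0.05, and CD3E, CD8A, CSF1R, CXCR4 and S100A9 were not well above background. The largest parts of the leukocyte sum were LYZ (6989 low-fertile, 4588 high-fertile) and PTPRC (5089 low-fertile, 2297 high-fertile). Epithelial genes (4 of 7 measured, summed signals 572 low-fertile and 556 high-fertile) and Sertoli, Leydig and peritubular genes (8 of 11, 1443 and 1145 in the same order) had median differences of -0.27 and 0.03. CDH1, EPCAM, CYP11A1 and HSD3B1 were not well above background. The part of other cells in the results below was not tested.

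Probes that fell in coding sequence and carry the results on UQCRC2, COX7A2 and ATP5A1 are printed here as the array holds them, so that the transcript stretch behind each value can be seen. Positions are those of the array design, whose build is HGSC Btau_3.1. The UQCRC2 probes lie on chromosome 25, plus strand, at chr25:20770631-20770912 (across an intron), chr25:20777649-20777708 and chr25:20791070-20791129. The COX7A2 probe crosses an intron on the minus strand at chr9:14626619-14628575. The ATP5A1 probes lie on the minus strand at chr24:47459175-47459234 and chr24:47457196-47457255. Each name is followed by the first base of the probe in its transcript.
UQCRC2 base 459: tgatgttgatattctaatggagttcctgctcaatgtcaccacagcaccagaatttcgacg
UQCRC2 base 763: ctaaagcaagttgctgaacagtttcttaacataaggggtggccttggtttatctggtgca
UQCRC2 base 1366: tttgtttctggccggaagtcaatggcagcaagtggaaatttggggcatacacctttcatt
COX7A2 base 172: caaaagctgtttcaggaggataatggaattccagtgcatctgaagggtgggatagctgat
ATP5A1 base 1110: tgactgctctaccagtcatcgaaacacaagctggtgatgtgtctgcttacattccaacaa
ATP5A1 base 1532: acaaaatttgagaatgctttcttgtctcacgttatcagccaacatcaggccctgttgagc

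Of the 92 names 58 (63.0%) were measured on both arrays, against 36% of all gene names on the array. Member names have more probes each than the array as a whole, and 1 probe is enough to count. By probe, 46.7% of member probes were measured, against 27.6% of all probes. One name, NDUFS1, was well above background on the low-fertile array only, and 5 (NDUFS7, UQCRB, COX6A2, ATP5C1 and ATP5SL) on the high-fertile array only. Of all gene names on the array, 4.29% were above background on the low-fertile array only and 4.32% on the high-fertile array only. The 5 of 92 on the high-fertile array only were near that share, and the 1 of 92 on the low-fertile array only lay below it. ATP5H had a different probe above background on each array, and 27 names were above background on neither. In complex I 23 of 37 genes were measured, in complex II 2 of 4, in complex III 7 of 9, in complex IV 12 of 17 and in complex V 10 of 15. The other 10 names were cytochrome c (CYCS measured, CYCT not) and 8 names that are no subunit or stand apart, of which NDUFAF3, NDUFA4L2 and COX4NB were measured.

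**Figure D1:**
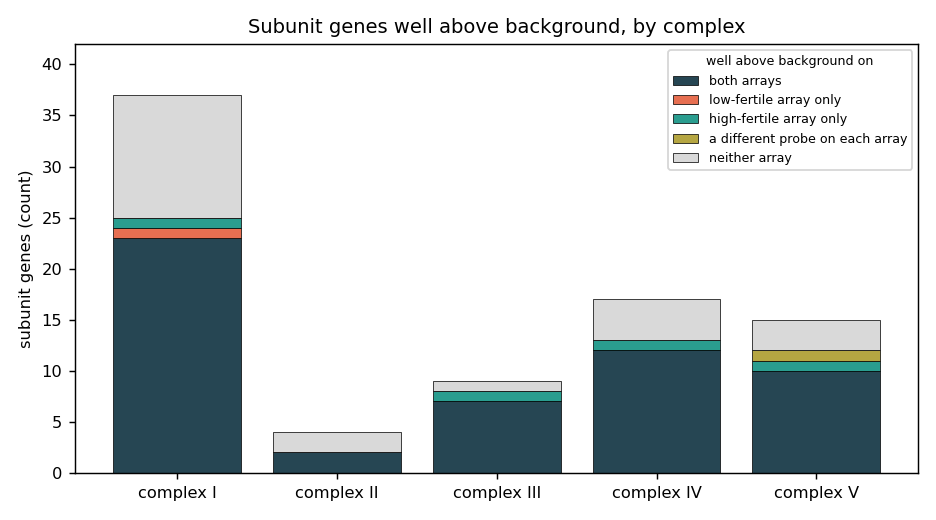
Number of subunit genes (vertical axis) in each of complexes I to V, split by the array on which a probe was well above background. The part measured on both arrays is 23 of 37 genes in complex I, 2 of 4 in II, 7 of 9 in III, 12 of 17 in IV and 10 of 15 in V.

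Over the subunits as a whole the arrays differed little, and single genes differed in both directions. The measured members had a median log2 difference of -0.04 and an SD over genes of 0.49, against a median of -0.00050 and an SD of 0.46 over all 11688 measured gene names. ATP5G3, COX7A2 and UQCRC2 were at least 2-fold higher on the low-fertile array, 3 of 58 measured members where 2.44% of all measured genes were. NDUFV3 and NDUFAB1 were at least 2-fold lower on the low-fertile array, 2 of 58 where 1.87% of all measured genes were, and either way the share over all genes was 4.3%. Of the members 25 had a difference above 0, against 49.9% of all measured genes. With scaling on spike-in controls the members' median was 0.55, and that of all genes 0.60.

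The medians of the complexes lay within a narrow range. They were -0.03 for complex I, -0.17 for complex II, -0.04 for complex III, -0.02 for complex IV and 0.11 for complex V. The widest gap, complex II minus complex V, was -0.28, and complex II rests on 2 genes. The spread over genes was 0.50 in complex I, 0.11 in II, 0.40 in III, 0.44 in IV and 0.65 in V, which in all but complex II exceeded the widest gap between medians. The median of complex V changed sign when dim probes were kept (-0.10) and under the stricter filter on dim probes (-0.15). Keeping dim probes also put the medians of complexes II, III and IV above 0 (0.07, 0.08 and 0.01), but below the median of all genes in that setting, 0.12.

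**Figure D2:**
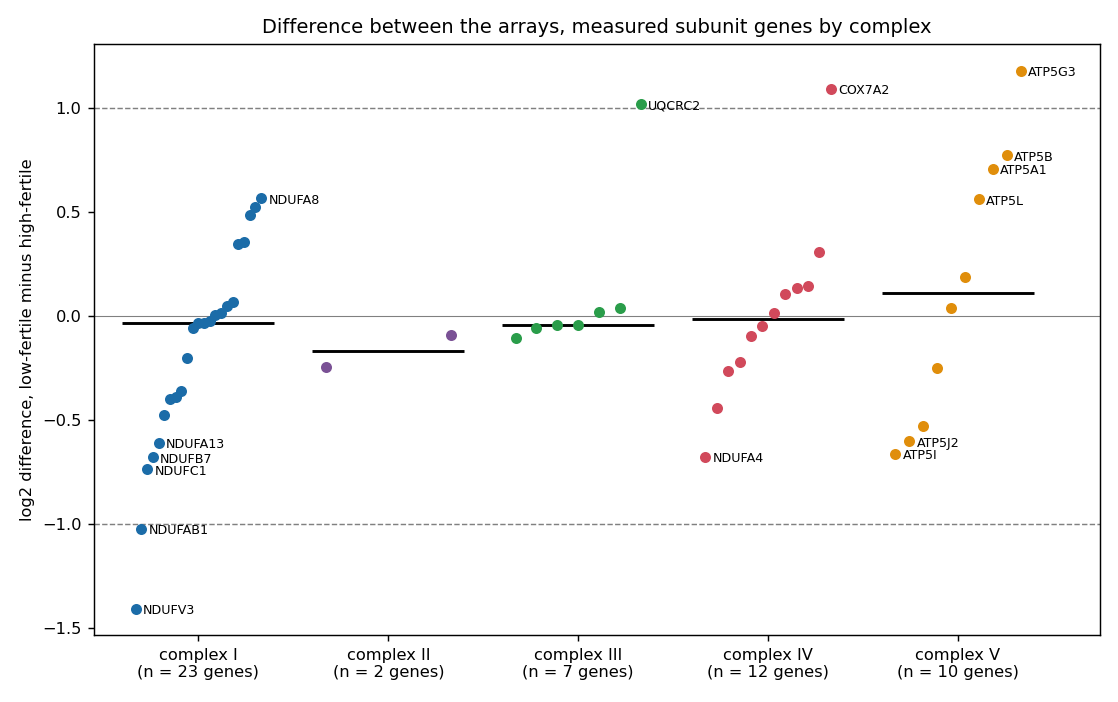
Each point is a measured subunit gene, placed by complex (horizontal axis) and by its log2 difference, low-fertile minus high-fertile (vertical axis). Bars are medians and dashed lines mark 2-fold, and the genes beyond them are ATP5G3, COX7A2 and UQCRC2 above and NDUFAB1 and NDUFV3 below.

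**Figure D3:**
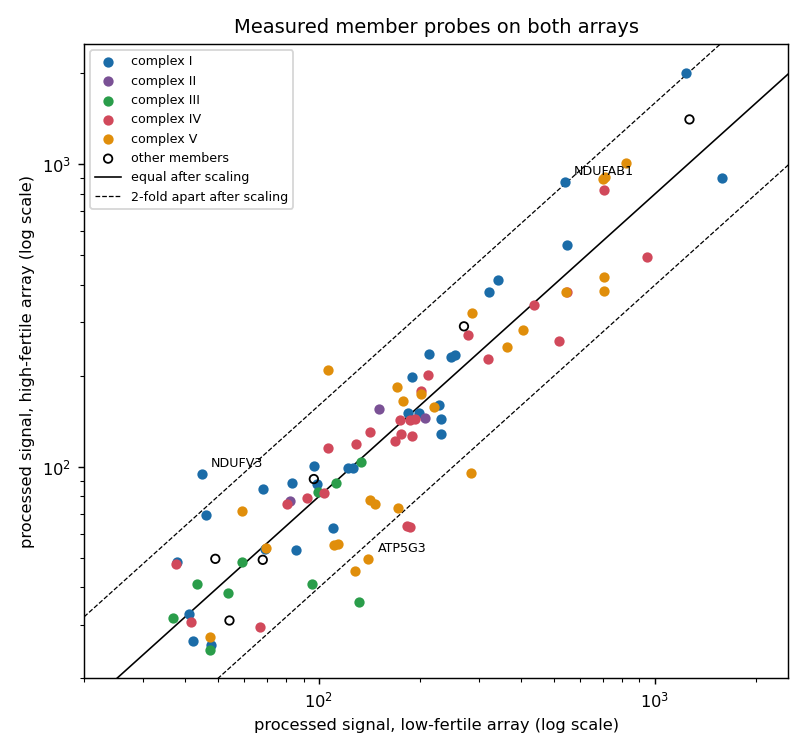
Processed signal of each measured member probe on the low-fertile array (horizontal) and the high-fertile array (vertical), both on log axes, coloured by complex. The solid line is equality after scaling and the dashed lines are 2-fold, and most of the 100 measured probes lie between the dashed lines.

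Complex I is an L-shaped enzyme whose N module oxidises NADH, whose Q module hands electrons to ubiquinone and whose membrane arm pumps protons. NDUFV3, an accessory subunit of the N module, had a signal of 44.8 on the low-fertile array and 94.7 on the high-fertile array. It was thus 2.65-fold lower on the low-fertile array (log2 -1.41, 1 of its 2 probes; the other probe was not above background). It was at least 2-fold lower in 8 of the 11 other settings that gave it a value, with a range of -1.51 to -0.61, and stood at -0.61 when its unmeasured probe was averaged in. The settings that change only the probe summary cannot move a gene with 1 measured probe. NDUFAB1, the mitochondrial acyl carrier protein that is also a complex I subunit, had a signal of 539.8 on the low-fertile array and 874 on the high-fertile array, and was 2.03-fold lower on the low-fertile array (log2 -1.02, its only probe, 1 spot). The probe shares 20 bases with an unnamed probe on chromosome 2 whose own difference was -0.89. NDUFAB1 lay close to the 2-fold line and passed it in 9 of 12 other settings, with a range of -1.13 to -0.43.

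The remaining complex I genes stayed within 2-fold. NDUFC1, an accessory subunit of the membrane arm, had signals of 46.2 and 322 at its 2 probes on the low-fertile array and 69.1 and 379.6 on the high-fertile array, a mean difference of -0.74 (SD 0.24 over probes). The brighter probe was designed on an expressed sequence tag, at chr17:19685003-19685062, and the dimmer on the reference transcript, at chr17:19687556-19687615. Their differences were -0.57 and -0.91 in the same order. For the dimmer NDUFC1 probe, 3 of the 8 spots around it were at least 2-fold apart in the same direction. At the other end stood NDUFA8, an accessory subunit of the membrane arm (47.7 low-fertile, 25.7 high-fertile, log2 0.57), and NDUFV2, a core subunit that carries an iron-sulphur cluster (231 low-fertile, 128 high-fertile, log2 0.53). By module, the N module had 5 of 8 genes measured with a median of -0.39, and 4 of the 5 were below 0, of which NDUFV1, NDUFA12 and NDUFA2 were above 0 with spike-in scaling. The Q module had 5 of 8 measured with a median of 0.02, and the membrane arm 12 of 20 with a median of -0.03. The flavoprotein NDUFV1, which binds NADH, stood at -0.40 (SD 0.35 over 2 probes).

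Among the N module genes NDUFS1, the largest iron-sulphur subunit, was well above background on the low-fertile array only, at 1 of its 5 probes (55.6 low-fertile, 24.7 high-fertile), which makes it at least 1.79-fold higher there. NDUFS7, a Q module subunit with an iron-sulphur cluster, was well above background on the high-fertile array only, at 1 of its 3 probes (43.5 low-fertile, 42.2 high-fertile). The bound came to 1.22-fold lower on the low-fertile array after scaling, but the repeat spots of this probe gave -0.76 and 0.19, on both sides of 0. Its other probes, above background on neither array, stood at 0.63 and 1.54. Neither bound reached 2-fold. The 12 complex I genes above background on neither array were NDUFA9, NDUFA10, NDUFB4, NDUFB5, NDUFB6, NDUFB9, NDUFB10, NDUFC2, NDUFS3, NDUFS4, NDUFS5 and NDUFS6.

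Complex II, succinate dehydrogenase, was measured only in its membrane anchors. SDHC had signals of 207 and 151 at its 2 measured probes on the low-fertile array and 145 and 155 on the high-fertile array, a mean difference of -0.09 (SD 0.40 over probes, which differed in sign). SDHD had 81.8 on the low-fertile array and 77.2 on the high-fertile array, a difference of -0.24. The catalytic subunits, the flavoprotein SDHA and the iron-sulphur protein SDHB, were above background on neither array, SDHA at none of 4 probes (the brightest had 34.3 low-fertile and 19.8 high-fertile) and SDHB at its only probe (15.8 low-fertile, 17.9 high-fertile). The 2 parts of the enzyme therefore could not be set against each other.

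In complex III 1 gene stood away from the others. UQCRC2, a core protein of the matrix side, had signals of 47.3, 95.5 and 132 on the low-fertile array and 24.7, 40.9 and 35.8 on the high-fertile array at the 3 probes printed above, in the order of their positions. All 3 were higher on the low-fertile array (log2 0.61, 0.89 and 1.55), and the gene was 2.03-fold higher (log2 1.02, SD 0.48 over probes). The UQCRC2 probe closest to the end of the transcript was not above background (12.4 low-fertile, 5.55 high-fertile). UQCRC2 passed 2-fold in 4 of 11 other settings, with a range of 0.48 to 1.62 and 1 sign throughout.

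The other measured genes of complex III had differences close to 0 at the probes measured on both arrays. UQCRC1, the partner core protein, stood at -0.04 (1 of 4 probes), CYC1, the cytochrome that passes electrons to cytochrome c, at -0.04, and UQCRH, the hinge protein, at -0.06. The small subunits UQCR10, UQCR11 and UQCRQ stood at -0.11, 0.02 and 0.04, UQCR10 with a signal of 36.8 on the low-fertile array and 31.6 on the high-fertile array and UQCRQ with 133 and 103 in the same order. The second UQCR10 probe did not match this: it was well above background on the low-fertile array only (56.5 low-fertile, 19.1 high-fertile), at least 1.995-fold higher there, and with both probes averaged UQCR10 stood at 0.57. UQCRB, a small subunit near the ubiquinone site, was well above background on the high-fertile array only, at 1 of 3 probes (21.4 low-fertile, 40.1 high-fertile), and was at least 1.66-fold lower on the low-fertile array. That probe was designed on an expressed sequence tag with no genome position here, and both UQCRB probes on the reference transcript were above background on neither array. UQCRFS1, the Rieske iron-sulphur protein, was above background on neither array. CYCS, the cytochrome c that shuttles electrons from complex III to IV, had 49.2 on the low-fertile array and 49.6 on the high-fertile array, a difference of -0.34, and CYCT, named for the testis form known from mouse, was above background on neither.

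Complex IV is read here through the subunits that surround its catalytic core, several of which exist as tissue variants. COX7A2, the widely expressed variant of subunit VIIa, had signals of 66.9, 183 and 187 at its 3 probes on the low-fertile array and 29.5, 63.8 and 63.3 on the high-fertile array. Each probe was higher on the low-fertile array, and the gene was 2.13-fold higher (log2 1.09, SD 0.21 over probes). The first of these probes, printed above, crosses an intron, and the other 2 overlap each other near the end of the transcript, so they are 2 separate stretches. COX7A2 passed 2-fold in 8 of 11 other settings, with a range of 0.61 to 1.69.

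The variant of subunit VIIa typical of heart and muscle, COX7A1, differed by 0.11 (41.5 low-fertile, 30.7 high-fertile) at 1 of its 3 probes, one designed on an expressed sequence tag with no genome position here. Both COX7A1 probes on its reference transcript were above background on neither array, as was COX7A2L, a relative that acts in assembling supercomplexes. Subunit IV was measured as the common form COX4I1 (107 low-fertile, 116 high-fertile, log2 -0.44, 1 of 4 probes), while COX4I2 was above background on neither array. For subunit VIa, the liver-type COX6A1 stood at -0.10 (92.3 low-fertile, 78.8 high-fertile), and the muscle-type COX6A2 was well above background on the high-fertile array only, and at least 1.42-fold lower on the low-fertile array. For subunit VIb both the common form COX6B1 (0.15, SD 0.47 over 3 probes) and COX6B2, the form typical of testis (-0.27, SD 0.40 over 2 probes), were measured, and neither had probes of 1 sign. COX6B2 had signals of 104 and 707 at its probes on the low-fertile array and 81.8 and 825 on the high-fertile array. For subunit VIIb COX7B stood at 0.01 and the testis-related COX7B2 was above background on neither array, and for subunit VIII the common COX8A stood at 0.14 and the heart-type COX8B at -0.22.

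At the low end of complex IV lay NDUFA4, first named for complex I and here placed in complex IV (37.6 low-fertile, 47.9 high-fertile, log2 -0.68, 1 of 4 probes). A probe overlapping it was well above background on the high-fertile array only (27.3 low-fertile, 52.1 high-fertile), at least 2.15-fold lower on the low-fertile array. The relative NDUFA4L2, which stands apart, differed by -0.24. COX7C had 3 measured probes in 3 separate stretches, with 951, 549 and 193 on the low-fertile array and 495, 378 and 144 on the high-fertile array. All 3 COX7C probes were above 0, with a mean of 0.31 (SD 0.27 over probes). COX5B, a zinc-binding subunit, had 5 measured probes between -0.30 and 0.27 with a mean of -0.05, and COX5A was above background on neither array.

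Complex V had the widest spread over genes. Its catalytic head, F1, is built from ATP5A1, ATP5B, ATP5C1, ATP5D and ATP5E, the alpha to epsilon subunits, of which 4 of 5 were measured, all above 0 with a median of 0.45 over the probes measured on both arrays. ATP5A1 had 6 measured probes, with 114, 284, 707, 706, 219 and 128 on the low-fertile array and 55.7, 95.7, 381, 423, 158 and 45.3 on the high-fertile array, in transcript order. All 6 ATP5A1 probes were above 0 (0.15 to 1.24), with a mean of 0.71 and an SD of 0.43 over probes in 3 separate stretches. ATP5A1 stayed above 0 in all 12 other settings, between 0.41 and 1.30. ATP5B, whose subunit carries the catalytic sites, had 172 and 147 at a pair of overlapping probes on the low-fertile array and 72.8 and 75.6 on the high-fertile array, a mean of 0.77, and its 3 probes nearer the start of the transcript were not above background.

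ATP5E stood at 0.19 (2 overlapping probes), and ATP5D at 0.04 (69.5 low-fertile, 54.0 high-fertile), whose sign held in 5 of 11 other settings. The second ATP5D probe was well above background on the high-fertile array only (29.1 low-fertile, 45.1 high-fertile) and at least 1.86-fold lower on the low-fertile array, and with both averaged ATP5D stood at -0.46. ATP5C1, the gamma subunit that turns in the head, also had a bound in the direction opposite to ATP5A1 and ATP5B. At 1 of its 4 probes it had 24.98 on the low-fertile array, not well above background, and 54.7 on the high-fertile array, which makes it at least 2.26-fold lower on the low-fertile array. Among all gene names above background on the high-fertile array only, 7.21% had a bound of at least 2-fold. The other 3 ATP5C1 probes were above background on neither array.

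The c subunit of the rotor is encoded by 3 genes whose mature proteins are the same, ATP5G1, ATP5G2 and ATP5G3. ATP5G3 had a signal of 140.5 on the low-fertile array and 49.4 on the high-fertile array at 1 of its 2 probes, whose repeat spots gave 0.99 and 1.37. It was 2.26-fold higher on the low-fertile array (log2 1.18), the highest member in these data. ATP5G3 passed 2-fold in 9 of 11 other settings, with a range of 0.67 to 1.78. ATP5G1 stood at -0.25 (SD 0.16 over 3 overlapping probes), and ATP5G2 at -0.53 (SD 0.75 over 3 probes, of which 1 was above 0). The 3 genes of one protein thus ranged from -0.53 to 1.18.

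The overlapping ATP5G2 probes were not identical, as the stretch they share shows, with the bases that differ in capitals. The first had 285 on the low-fertile array and 323 on the high-fertile array, and the second 107 and 209 in the same order, so their differences were -0.50 and -1.30. The overlapping ATP5L probes also differ at 1 base, and their differences were 0.54 and 0.68.
ATP5G2 first probe: aacctggggaaagtAgttggctcagGgctt
ATP5G2 second probe: aacctggggaaagtGgttggctcagAgctt
ATP5L first probe: atgtggttttatgttggcAagatcatag
ATP5L second probe: atgtggttttatgttggcGagatcatag

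The membrane subunits e, f and g of complex V, which hold ATP synthase dimers together, did not share a sign. ATP5I, subunit e, had 702, 710 and 819 at 3 overlapping probes on the low-fertile array and 892, 911 and 1008 on the high-fertile array, a mean of -0.66 with an SD of 0.03 over probes. ATP5J2, subunit f, had 59.2 on the low-fertile array and 71.6 on the high-fertile array, a difference of -0.60. ATP5L, subunit g, had 142, 111 and 47.3 at its 3 measured probes on the low-fertile array and 77.6, 55.2 and 27.4 on the high-fertile array, a mean of 0.56 (SD 0.11). None of the 4 genes of the peripheral stalk was measured: ATP5F1, ATP5J and ATP5O were above background on neither array, and ATP5H at 1 probe on the low-fertile array (47.2 low-fertile, 17.0 high-fertile) and at another on the high-fertile array (35.1 low-fertile, 30.7 high-fertile).

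Of the names outside the complexes, NDUFAF3, an assembly factor of complex I, stood at -0.48 (1268 low-fertile, 1408 high-fertile) and COX4NB, which the reference names EMC8 and which is no subunit, at 0.06. NDUFAF1, NDUFAF2, NDUFAF4 and ATP5S were above background on neither array. ATP5SL was well above background on the high-fertile array only (28.9 low-fertile, 28.5 high-fertile at 1 of 2 probes), and after scaling at least 1.18-fold lower on the low-fertile array.

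Probes of one gene were compared with each other, since they give the only repeat of a transcript within an array. Of 25 members with more than 1 measured probe, 15 had probes of 1 sign, and of 16 members measured in separate, non-overlapping stretches 8 had stretches of 1 sign. The median SD over probes was 0.24 in these members and 0.25 over the 1774 gene names on the array with more than 1 measured probe. ATP5A1, COX7A2, UQCRC2, COX7C and ATP5L were above 0 in every separate stretch, and NDUFC1, NDUFS8 and NDUFV1 below 0, in the scaling used here. For NDUFC1 this includes the probe designed on an expressed sequence tag. Of the genes at least 2-fold apart, ATP5G3, NDUFV3 and NDUFAB1 rested on 1 measured probe each. A further probe above background on 1 array only was seen in 7 measured members, UQCR10, ATP5D and NDUFA4 as given above and NDUFA3, NDUFV2, UQCRC1 and ATP5L with bounds of 1.05-fold to 1.26-fold.

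**Figure D4:**
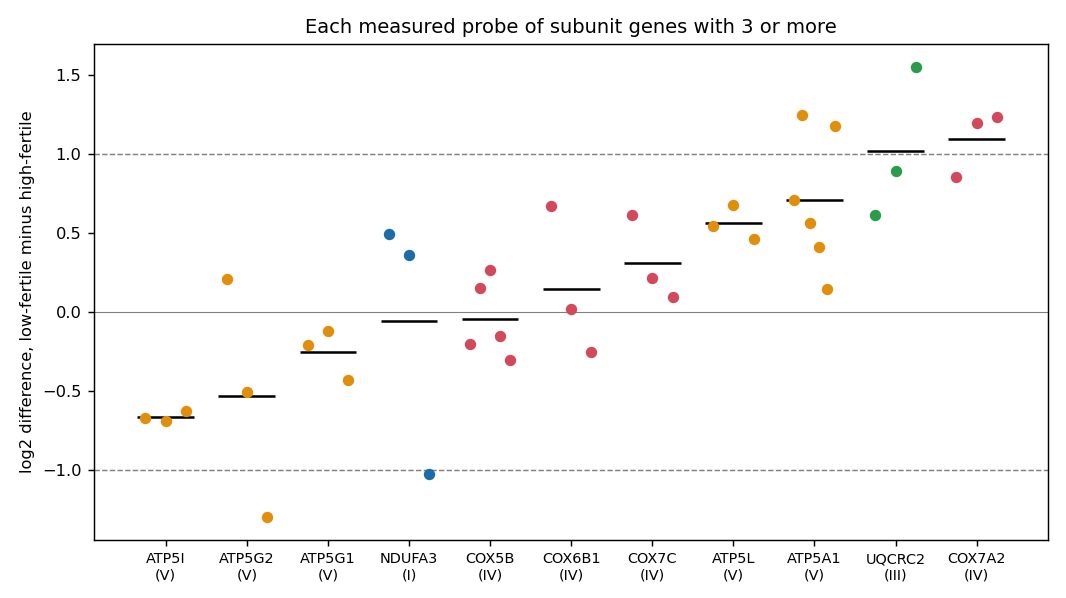
Log2 difference, low-fertile minus high-fertile (vertical axis), of each measured probe of the members with at least 3, ordered by their mean (bar). ATP5A1, ATP5L, UQCRC2, COX7A2 and COX7C lie above 0 at every probe and ATP5I and ATP5G1 below, while NDUFA3 runs from -1.02 to 0.49.

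NDUFA3, an accessory subunit of the complex I membrane arm, showed the largest disagreement. Its probes had 110.4, 85.5 and 1235 on the low-fertile array and 62.6, 53.1 and 1998 on the high-fertile array, with differences of 0.49, 0.36 and -1.02. The last of these ends in 6 A bases, and the array design places it on chromosome 5 while the others lie on chromosome 18. COX6B1 (probe on chromosome 5, the others on 18) and COX5B (23 and 11) each had such a probe too, and both stood below the mean of the gene's other probes, by -0.59 for COX6B1 and -0.32 for COX5B. For ATP5L and ATP5E the same comparison gave -0.15 and 0.01. Over the array, 105 gene names had probes of both kinds, the median of the difference was -0.11, and 61.0% lay below 0. The last 30 bases of the probes are shown with the A run in capitals.
NDUFA3: ggccccaataaatgcgtgaaaaccAAAAAA
COX6B1: taataaatgctcgttggaaacgtgAAAAAA
COX5B: cattacattggcttctcctcccatAAAAAA
ATP5L: gaataaaataagacaatgtgtcagAAAAAA
NDUFA13: agaataaacgctttggagactggcAAAAAA

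The differences varied with base composition over the whole array, without a steady order. Over all measured probes the median was -0.34 at a GC content under 35% (35 probes), 0.05 from 35%, 0.11 from 40%, 0.11 from 45%, -0.03 from 50% and -0.08 from 55% upward. Over member probes the medians in the same order were -0.42 (2 probes), 0.08, 0.14, 0.13, -0.37 and -0.16. The measured probes of UQCRC2 (43.3% to 45%), COX7A2 (36.7% to 45%), ATP5A1 (35% to 45%) and ATP5G3 (35%) lay below 50%, that of NDUFAB1 at 45% and that of NDUFV3 at 51.7%. The part of GC content in these results was not tested. RNA was primed with oligo-dT, and in 10 of 17 member transcripts with both measured and unmeasured probes the one closest to the end was measured. In the other 7, UQCRC2 and SDHD among them, it was not.

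Genes that feed, build or direct the chain were read from lists. Of 13 mitochondrially encoded subunits 2, ND3 and COX1, were not on the array by name. ND1 (41.2 low-fertile, 30.8 high-fertile, log2 0.09) and ND5 (37.6 low-fertile, 26.1 high-fertile, log2 0.20) were measured. CYTB, COX3 and ATP6 were well above background on the low-fertile array only, where 4.29% of all gene names were. So were 3 carriers and channels, 3 assembly factors and 2 citric acid cycle genes, while 1 assembly factor and 1 regulator were on the high-fertile array only. Of 18 genes of the citric acid cycle and pyruvate dehydrogenase 7 were measured, with a median of 0.03 and 1 at least 2-fold higher on the low-fertile array. This was CS, citrate synthase, with 108 on the low-fertile array and 42.2 on the high-fertile array at 1 of its 3 probes (log2 1.02). CS passed 2-fold in 4 of 11 other settings, with a range of 0.32 to 1.62. A further CS probe was above background on the low-fertile array only (36.4 low-fertile, 8.32 high-fertile), and the third on neither. Of 31 assembly factors 8 were measured, with a median of -0.16, a range of -0.48 to 0.01 and none 2-fold apart. Of 13 carriers and channels 4 were measured, ETFB, SLC25A6, VDAC1 and VDAC3, with differences of 0.15 to 0.51 and none 2-fold apart.

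Of 11 regulators of mitochondrial genes 4 were measured, with a median of -0.07. PPARGC1A, a coactivator of mitochondrial biogenesis, had a signal of 252 on the low-fertile array and 72.1 on the high-fertile array at 1 of its 3 probes, 2.78-fold higher on the low-fertile array (log2 1.48). It was at least 2-fold higher in 11 of 11 other settings, of which those changing only the probe summary could not move its single measured probe. A further PPARGC1A probe was above background on the low-fertile array only (67.3 low-fertile, 10.1 high-fertile), and the third on neither. NRF1, a transcription factor of nuclear genes for mitochondrial proteins, stood at -0.32, TFB1M, a methyltransferase of mitochondrial ribosomal RNA, at -0.46, and POLRMT, the mitochondrial RNA polymerase, at 0.18. TFAM, GABPA, GABPB1, ESRRA and TFB2M were above background on neither array.

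**Figure D5:**
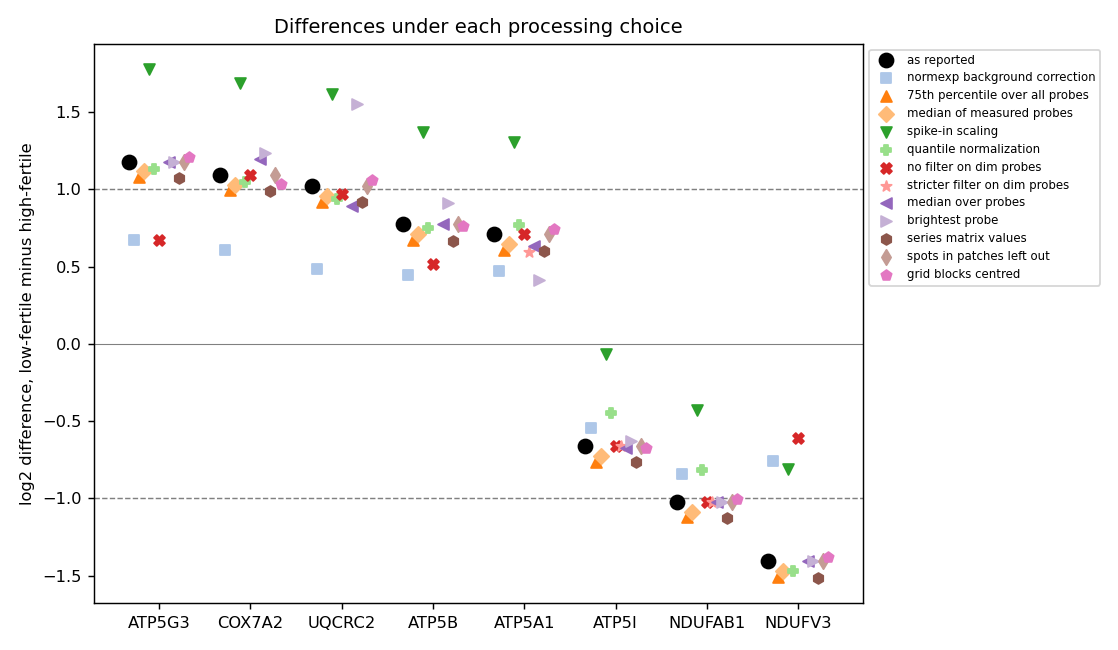
Log2 difference, low-fertile minus high-fertile (vertical axis), of 8 members as reported (black) and under 12 other processing choices (coloured marks). ATP5G3, COX7A2, UQCRC2, ATP5B and ATP5A1 stay above 0 and ATP5I, NDUFAB1 and NDUFV3 below under every choice that gave a value. The spike-in scaling moves every gene up, and its mark is the highest for all but NDUFV3.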

How the data were processed

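Total RNA of spermatozoa was labelled with Cy3 and hybridised to 1 bovine oligonucleotide array per fertility group. The deposited scanner tables hold a linear intensity per spot, made with Agilent Feature Extraction 11.5.1.1, per the file headers, on build HGSC Btau_3.1, with background subtracted within each array. The deposited series matrix holds log2 values, found here to be the log2 processed signal plus a constant per array (-5.55 low-fertile, -5.12 high-fertile, within 0.01 for 98.6% of probes). Its column medians were -1.37 and -1.43 in the same order. Centring per gene was thus absent. How the submitters normalized the arrays to each other is not given in the sources used here.

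Control spots and 9 flagged spots were left out, spots of a probe were averaged on the log2 scale, and each array's 75th percentile over probes well above background on both arrays (27.6% of probes, under the 50% set as the limit for using all probes) was subtracted. Of the spots 32.9% on the low-fertile and 33.2% on the high-fertile array were well above background, from a signal of 30.3 and 22.6 upward, and 0 were saturated. A gene above background on 1 array only is given as "at least N-fold", its bright probe against the higher of that limit and the dim probe's own signal on the other array, both after scaling. Gene names are those of the array design; 87 of the 92 member names matched a symbol or older symbol in a reference table of another assembly, used for names only, and 17 have a newer one there (ATP5A1 is ATP5F1A, ATP5G3 is ATP5MC3).

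No test was run, since each group has 1 array; a gene was counted at an absolute log2 difference of at least 1 and set beside the share over all measured genes. The 12 alternatives changed the background correction (normexp, offset 50, limma 3.58.1 in R 4.3.3), scaling, probe filter, probe summary, source of the values and spatial treatment. They are not independent checks. The probe summaries return the reported value for a gene with 1 measured probe. Scaling by spike-ins, all probes or the median of measured probes moves every gene by the same amount. The matrix values nearly repeat the 75th percentile over all probes. The counting was tested on simulated data. Named were members at least 2-fold apart or with such a bound, the extremes of each complex, the succinate dehydrogenase genes, tissue variants, members with at least 3 measured probes, and members whose call changes with a setting; other names with values were chosen after these were seen. The members, lists and rules were chosen with earlier results of these data known. One marker list is not reported here.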

Additional observations from a re-analysis of the deposited data

How the results depend on the processing

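No paired analysis was possible because each group has 1 array and the labels give no replicate numbers. The count of members at least 2-fold higher on the low-fertile array, 3 as reported, was 0 with normexp and with the stricter filter on dim probes, 1 with the 75th percentile over all probes, with no filter and with the series matrix values, and 9 with spike-in scaling, where ATP5A1, ATP5B, ATP5L, NDUFA6, NDUFA8 and NDUFV2 joined. The count at least 2-fold lower, 2 as reported, was 0 with normexp and with spike-in scaling, and 1 with quantile normalization and with no filter. Spike-in scaling shifted the median of all genes to 0.60 and moved the median of the members to 0.55, of complex I to 0.56, II to 0.43, III to 0.55, IV to 0.58 and V to 0.71. It subtracts 1 constant per array, so the members' median relative to all genes, -0.04, could not change. Scaling by all probes' 75th percentile and the matrix values shifted the median of all genes to -0.10, and keeping dim probes to 0.12. Of all genes 2-fold apart, 285 higher and 218 lower on the low-fertile array (56.7% higher), the share higher was 40.0% with normexp (48 and 72 genes), 40.6% with the 75th percentile over all probes, 40.2% with the matrix values, 68.9% with no filter (1806 and 815), 26.7% with the stricter filter (46 and 126) and 98.2% with spike-in scaling (1781 and 33). No member counted as 2-fold apart as reported changed sign under a setting that measured it. NDUFA6 rested on 1 measured probe, designed on an expressed sequence tag, that shares 20 bases with a probe of C18H19orf68. Its probe on the reference transcript was above background on neither array. NDUFA3 stood at -1.02 with the brightest probe and with the stricter filter, since both keep its A-ended probe alone. NDUFA3 thus joined the members at least 2-fold lower in both, but kept its reported sign in 10 of 12 settings and reached 0.54. The stricter filter left 32 members, and ATP5G3, COX7A2, UQCRC2 and NDUFV3 were not among them. Other causes of these moves were not tested.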

Other observations

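Subunits that the rule did not catch by their name on the array were looked up through the reference table. COX6C, a complex IV subunit listed under a clone name, had a signal of 137 on the low-fertile array and 255 on the high-fertile array at its only probe, and was 2.34-fold lower on the low-fertile array (log2 -1.23). It was at least 2-fold lower in 10 of 12 other settings. ATP5MK, a small membrane subunit of complex V listed under an older name, had 527 on the low-fertile array and 584 on the high-fertile array, a difference of -0.48. Both were named after their values were seen. ATP5MJ, another small subunit of complex V, and ATP5IF1, the inhibitor of the enzyme, were above background on neither array.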
